A study of Homo sapiens with 12 samples.

Results

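The subunits of the SWI/SNF chromatin remodeling complexes were followed across 12 dual-color oligonucleotide arrays. The members are 10 genes, SMARCA4, SMARCA2, ARID1A, ARID1B, PBRM1, SMARCB1, SMARCC1, SMARCC2, SMARCD1, and SMARCE1, and every array probe whose RefSeq accession belongs to one of them was taken. This gave 22 probes of the 41000 probes that are not controls. SMARCB1 and ARID1B are represented by 1 probe each, 4 genes (SMARCA2, SMARCC1, SMARCD1, and SMARCE1) by 2 probes each, and 4 genes (SMARCA4, ARID1A, PBRM1, and SMARCC2) by 3 probes each. Probes of 1 gene were hybridized with the same RNA sample and are not replicates.

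SWI/SNF complexes are ATP-driven machines that slide or evict nucleosomes and thereby open promoters and enhancers. Each complex carries one of a pair of alternative ATPases, SMARCA4 (BRG1) or SMARCA2 (BRM), on a core that includes SMARCB1, the SMARCC scaffold proteins, SMARCD1, and SMARCE1. The large ARID1A or ARID1B subunit marks the canonical BAF complex, whereas PBRM1 belongs to the PBAF complex. In Wnt signaling, BRG1 is known as a coactivator that binds β-catenin, and several of these subunits are tumor suppressors.

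Ls174T is a human colorectal cancer line with a point mutation in β-catenin that keeps Wnt signaling active, and HEK293T is a human embryonic kidney line whose Wnt pathway is intact and can be induced. All cells had been transfected for 72 h with 15 nM siRNA, and the siRNAs were pools. In Ls174T cells, β-catenin-depleted RNA was hybridized against si-control RNA on 2 arrays with the dyes exchanged, and the si-control cells and those depleted of MLLT10, BRG1 (si-BRG1), or p300 (si-P300) were each measured on 1 array against a universal human reference RNA. For HEK293T there was 1 array of si-control cells in control medium (CM) and 1 of si-control cells kept for 9 h in Wnt3A conditioned medium. The HEK293T cells depleted of p300, BRG1, DOT1L, or MLLT10 had 1 array per target, also with 9 h of Wnt3A, and every HEK293T array carried the reference RNA in its other channel. DOT1L is the histone H3 methyltransferase, MLLT10/AF10 is a protein that binds it, and p300 is a histone acetyltransferase. Each condition is 1 biological replicate. No difference between conditions therefore has a replicate check, no p-values are given, and the errors stated are those of the scanner program for a single spot, which leave out the spread between cultures.

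Each array carried 45015 features, and 18104 to 31011 of those that are not controls had a median signal above 2-fold the local background in at least one channel (well-measured). The 12 arrays lay on 5 slides. The si-control array of Ls174T cells shared a slide with si-MLLT10 but not with si-BRG1 and si-P300, and the Wnt3A si-control array of HEK293T cells lay on a slide without any other array of the study, so for every HEK293T comparison and for BRG1 and p300 in Ls174T, slide and condition cannot be told apart. All 10 colorectal epithelial marker genes were well above background on every Ls174T reference array, whereas KRT20, VIL1, CEACAM5, and LGR5 were not so on every HEK293T array. Of 6 embryonic kidney line markers, 5 were well above background on every HEK293T array and 4 on every Ls174T reference array. PTPRC, PECAM1, CDH5, and COL3A1, markers of blood, endothelium, and fibroblasts, were not so in either line, whereas 6 of the 10 markers of these lists (CD3E, CD79A, CD14, VWF, COL1A2, and DCN) were in both, and their part in the results was not tested. The depleted transcripts were lower in their own depletion on 10 of 11 probes. These changes were -2.70 and -2.49 for CTNNB1 on the log2 scale, -1.42 (Ls174T) and -1.76 (HEK293T) for MLLT10, and -0.60 and -1.31 (Ls174T) and -2.35 and -2.98 (HEK293T) for EP300. For DOT1L they were -1.41 and -1.97, and another DOT1L probe was at 0.17.

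The promoters of the alternative ATPase genes are shown because both ATPase transcripts differed between the lines, in opposite directions. The sequences are the RefSeq windows of 300 bases around the annotated start in build GRCh38.p14, both on the plus strand, chr19:10960780-10961079 for SMARCA4 and chr9:2015097-2015396 for SMARCA2. Both windows contain the first bases of the transcript. Capitals mark GC boxes (GGGCGG or its reverse complement CCGCCC).
SMARCA4: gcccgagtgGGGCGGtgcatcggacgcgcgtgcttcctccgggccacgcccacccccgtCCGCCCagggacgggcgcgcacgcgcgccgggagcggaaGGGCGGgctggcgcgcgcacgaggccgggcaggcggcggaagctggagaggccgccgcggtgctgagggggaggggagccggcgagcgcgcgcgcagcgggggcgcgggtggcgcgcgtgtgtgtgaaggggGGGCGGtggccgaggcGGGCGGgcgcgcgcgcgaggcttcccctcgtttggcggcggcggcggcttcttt
SMARCA2: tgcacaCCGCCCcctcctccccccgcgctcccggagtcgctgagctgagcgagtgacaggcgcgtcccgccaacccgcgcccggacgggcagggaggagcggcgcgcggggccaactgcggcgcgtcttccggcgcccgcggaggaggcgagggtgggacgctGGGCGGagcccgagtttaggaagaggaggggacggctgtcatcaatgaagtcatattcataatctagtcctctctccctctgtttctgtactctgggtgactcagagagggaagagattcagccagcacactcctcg
The SMARCA4 window holds 5 GC boxes and is 81.3% G and C, and the SMARCA2 window holds 2 GC boxes at 66.7%, against a median of 58.7% over all 35116 promoter windows. Windows of other annotated starts, not shown, hold 0 GC boxes, at 57% for SMARCA4 and 43%, 48.7%, and 43% for SMARCA2. A GC box was found in 9 of 14 windows of the 8 members listed (8 of 8 genes) and in 45% of all windows. The core of the TCF/LEF motif (CTTTGA or TCAAAG) was absent from both windows shown and was found in 1 of 14 member windows, an alternative start of SMARCA2, and in 12.9% of all windows. A match describes the letters in the window only.

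SMARCA4, the siRNA target, was strongly lower after BRG1 depletion in both lines. Values are log2 ratios of sample over reference RNA, which can be compared between arrays for 1 probe and not between probes. On probe A_23_P39040, the ratio in Ls174T cells was -0.22 in si-control, -0.28 in si-MLLT10, and -0.07 in si-P300, and -2.70 in si-BRG1. In HEK293T cells the same probe read 0.58 in CM, 0.75 in Wnt3A si-control, 0.82 in si-MLLT10, 0.86 in si-DOT1L, 0.69 in si-P300, and -3.25 in si-BRG1. The si-BRG1 arrays stood far below all others, and the other arrays of a line lay within a narrow range.

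After BRG1 depletion in Ls174T cells, the 3 SMARCA4 probes changed by -2.53 ± 0.42, -2.48 ± 0.38, and -2.24 ± 0.34 (log2, program error), which left 17.3%, 17.9%, and 21.1% of the si-control level. In HEK293T cells they changed by -3.96 ± 0.45, -4.00 ± 0.42, and -3.95 ± 0.40, which left 6.44%, 6.26%, and 6.46%. The 3 probes therefore lay within their errors of each other in each line, and all were marked well above background by the scanner program in the depleted cells. A stricter filter, a median signal above 2-fold the background in both channels, did not keep A_24_P212851 in HEK293T, where its sample signal was 69.1. They ranked 17, 20, and 30 from the lowest of 25776 probes in Ls174T and 8, 6, and 9 of 26115 in HEK293T. Against the p300-depleted array of the same slide, the changes were -2.86, -2.63, and -2.44 in Ls174T and -3.92, -3.94, and -3.87 in HEK293T. After normexp background correction and loess, probe A_24_P212851 changed by -0.92 in Ls174T, short of 2-fold, and by -1.84 in HEK293T. With background outliers set to the median before that correction, this probe changed by -1.51, past 2-fold, and by -2.83. Fewer expressing cells and less RNA per cell cannot be told apart in these bulk samples.

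The sample signal was lower on the si-BRG1 arrays. For probe A_23_P39040, the processed sample signal was 870 in si-BRG1 against 4774 to 5674 on the 3 other Ls174T reference arrays, and 747 against 11355 to 14933 on the 5 other HEK293T arrays. The reference signal of this probe on the si-BRG1 arrays was 5655 and 7109, against 5712 to 5972 and 7052 to 8237. For A_24_P212851 the reference signal on the si-BRG1 arrays was below that of every other array of its line, at 131 against 172 to 186 in Ls174T and 241 against 259 to 348 in HEK293T, and its change in the sample channel alone was -3.08 and -3.94.

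**Figure D1:**
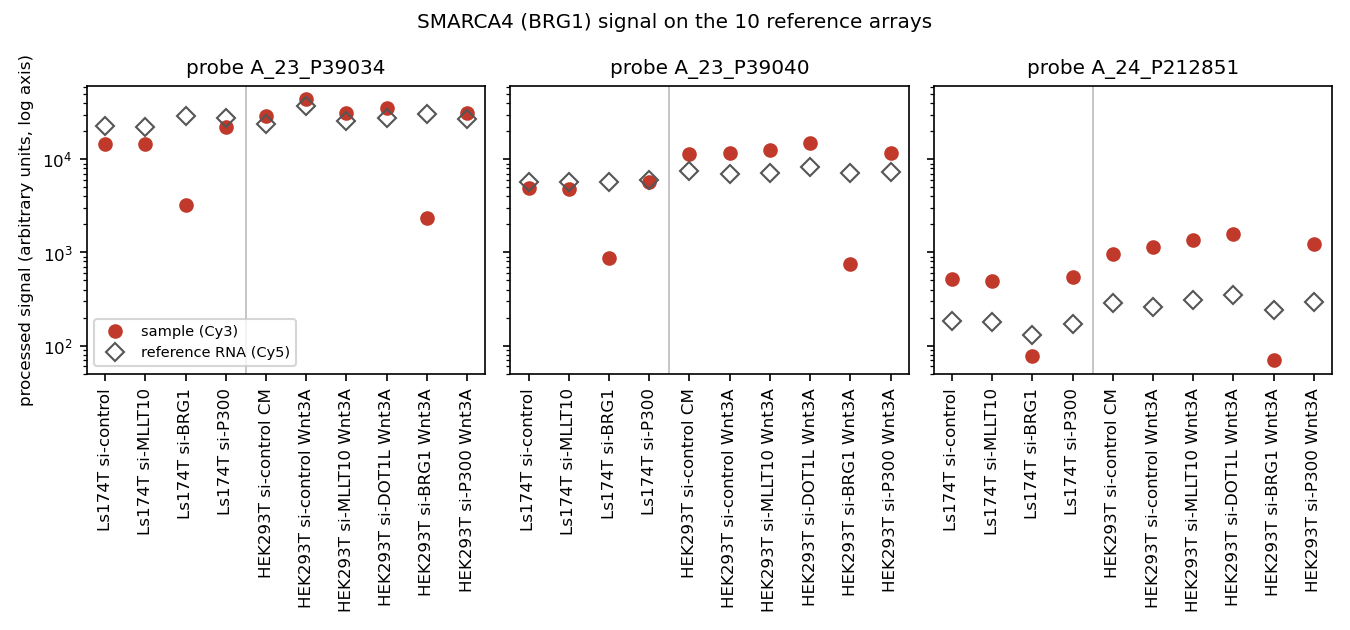
Processed signal (log axis, arbitrary units) of the 3 SMARCA4 probes on the 10 reference arrays, Ls174T left and HEK293T right of the vertical line. Filled circles are the sample channel and open diamonds the reference RNA, 1 spot per point with no error bar. The sample signal drops on both si-BRG1 arrays, for A_23_P39040 to 870 and 747, where the reference signal is 5655 and 7109.

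Outside BRG1 depletion, SMARCA4 was higher in HEK293T than in Ls174T cells. Leaving out the si-BRG1 arrays, the 3 probes read -0.66 to -0.33, -0.28 to -0.07, and 1.47 to 1.67 in Ls174T and 0.20 to 0.37, 0.58 to 0.86, and 1.77 to 2.19 in HEK293T. The medians were higher in HEK293T by 0.87, 0.97, and 0.67 on the log2 scale. These ranges did not overlap on any of the 3 probes.

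SMARCA2, the alternative ATPase, ran the other way and was higher in Ls174T cells. Probe A_23_P252764 read 1.77 in si-control, 1.79 in si-MLLT10, 1.38 in si-BRG1, and 1.80 in si-P300 in Ls174T cells. In HEK293T cells it read 0.62 in CM, 0.12 in Wnt3A si-control, 0.19 in si-MLLT10, 0.38 in si-DOT1L, 0.73 in si-BRG1, and 0.22 in si-P300. All 4 Ls174T values were above all 6 HEK293T values. Probe A_23_P60354 gave the same order, with 0.67 to 0.94 in Ls174T and -0.56 to -0.22 in HEK293T. The difference of the medians was 1.48 and 1.30 for these probes.

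The probes of SMARCA2 gave unlike values when BRG1 was depleted. In Ls174T cells the changes were -0.39 ± 0.36 for A_23_P252764 and 0.03 ± 0.31 for A_23_P60354, and in HEK293T cells they were 0.60 ± 0.32 and 0.12 ± 0.30. The change of 0.60 was past 1.5-fold, and against the p300-depleted array of the same slide it was 0.51, short of 1.5-fold. The sample signal of this probe was 135 in si-BRG1 and lay within the 133 to 152 of the 5 other HEK293T arrays, while its reference signal was 81.6 against 99.2 to 135. Taken from the sample channel alone, the change was -0.0044. This scale moved the median of all probes by 0.22 in the comparison, and relative to that move the change was -0.22. The part of the reference signal in the change was not tested.

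Among the ARID subunits, which target the canonical BAF complex to chromatin, ARID1A was lower in Ls174T cells and ARID1B was similar in both lines. ARID1A probe A_23_P217872 read -2.47 to -2.15 in Ls174T and -1.39 to -0.98 in HEK293T, and probe A_24_P92952 read -0.98 to -0.66 and -0.15 to 0.39. Probe A_24_P77219 was not well above background on any Ls174T array and was well-measured on 1 array of the 12, so it entered no comparison. ARID1B read 0.37 to 0.51 in Ls174T and 0.12 to 0.47 in HEK293T, and these ranges overlapped. No ARID1A or ARID1B probe passed the fold threshold in any of the 9 comparisons.

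PBRM1, the bromodomain subunit of PBAF, showed one of the wider separations between the lines. Its 3 probes read 0.47 to 0.62, -0.30 to 0.01, and -0.77 to -0.50 in Ls174T and 1.61 to 2.26, 1.45 to 1.71, and 0.81 to 1.16 in HEK293T. The medians were lower in Ls174T by 1.26, 1.75, and 1.61. After BRG1 depletion in HEK293T cells the probes changed by 0.52 ± 0.40, -0.12 ± 0.35, and -0.04 ± 0.31, none past the threshold. Against the p300-depleted array of the same slide, A_23_P218863 was at 0.65 ± 0.39 and past 1.5-fold. In the sample channel alone this probe was at -0.73 there and at -0.35 against si-control. Its sample signal was 313 in si-BRG1 against 433 to 596 on the other HEK293T arrays. The reference signal was 65.6 against 130 to 154, and its part in the change was not tested.

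In the core, SMARCB1 read 1.80 in si-control, 1.87 in si-MLLT10, 1.84 in si-BRG1, and 2.01 in si-P300 in Ls174T cells. In HEK293T cells its single probe read 2.16 in CM, 2.35 in Wnt3A si-control, 2.21 in si-MLLT10, 2.15 in si-DOT1L, 2.36 in si-P300, and 1.55 in si-BRG1. The HEK293T si-BRG1 array was the lowest of the 10. Its change to si-control was -0.80 ± 0.39, and -0.81 against the p300-depleted array of the same slide. The sample signal was 1146 on this array against 1183 to 1287 on the others, and the reference signal was 391 against 232 to 289. With the sample channel alone, the change was 0.07 against si-control (-0.15 relative to the move of the median of all probes) and -0.40 against the p300-depleted array.

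The scaffold subunit SMARCC1 was lower in Ls174T cells on both probes. Probe A_23_P83453 read -0.33 to -0.19 in Ls174T and 0.75 to 1.16 in HEK293T, and A_32_P112104 read 0.05 to 0.45 and 0.89 to 1.91. In each line the si-BRG1 array gave the lowest value of both probes. The changes after BRG1 depletion were -0.14 ± 0.29 and -0.31 ± 0.29 in Ls174T and -0.36 ± 0.31 and -0.38 ± 0.32 in HEK293T, all short of the threshold. In HEK293T the si-BRG1 sample signals, 9309 and 1737, lay within the 8900 to 11546 and 1718 to 3351 of the other arrays. The sample channel alone changed by 0.19 and 0.14 there, or -0.03 and -0.08 relative to the move of the median of all probes. In Ls174T these relative values were -0.25 and -0.81. The part of the reference signal was not tested. Against the p300-depleted HEK293T array of the same slide, A_32_P112104 was at -0.62 ± 0.33, past 1.5-fold.

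The 3 probes of SMARCC2, the other scaffold subunit, were not all alike. A_23_P128073 read -3.45 to -3.10 in Ls174T and -0.76 to -0.41 in HEK293T, a difference of the medians of -2.86 that was the widest of the members. A_24_P129813 read 0.06 to 0.40 and -0.46 to 0.50, with overlapping ranges. This probe changed by -0.49 ± 0.29 after BRG1 depletion in HEK293T against si-control and by -0.75 ± 0.29, past 1.5-fold, against the p300-depleted array of the same slide. A_23_P116682 was dim and not well-measured on si-MLLT10 in Ls174T. It read -1.11 to 0.09 in Ls174T and 0.69 to 1.16 in HEK293T, in the same direction as A_23_P128073. The probes carry RefSeq accessions of the same gene, and which transcripts each one reads was not tested.

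SMARCD1, a subunit that links the complex to transcription factors, and SMARCE1, its HMG-box subunit, each had probes of unlike behavior. SMARCD1 probe A_23_P204745 read 0.84 to 1.27 in Ls174T and 0.60 to 1.12 in HEK293T and overlapped, whereas A_24_P232696 read -0.56 to -0.21 and -0.08 to 0.22. SMARCE1 probe A_23_P164387 was lower in Ls174T (-0.76 to -0.22 against 0.20 to 0.45), and A_23_P333063 was higher there (1.05 to 1.26 against -0.06 to 0.56). A line difference for SMARCE1 therefore has no single direction here.

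**Figure D2:**
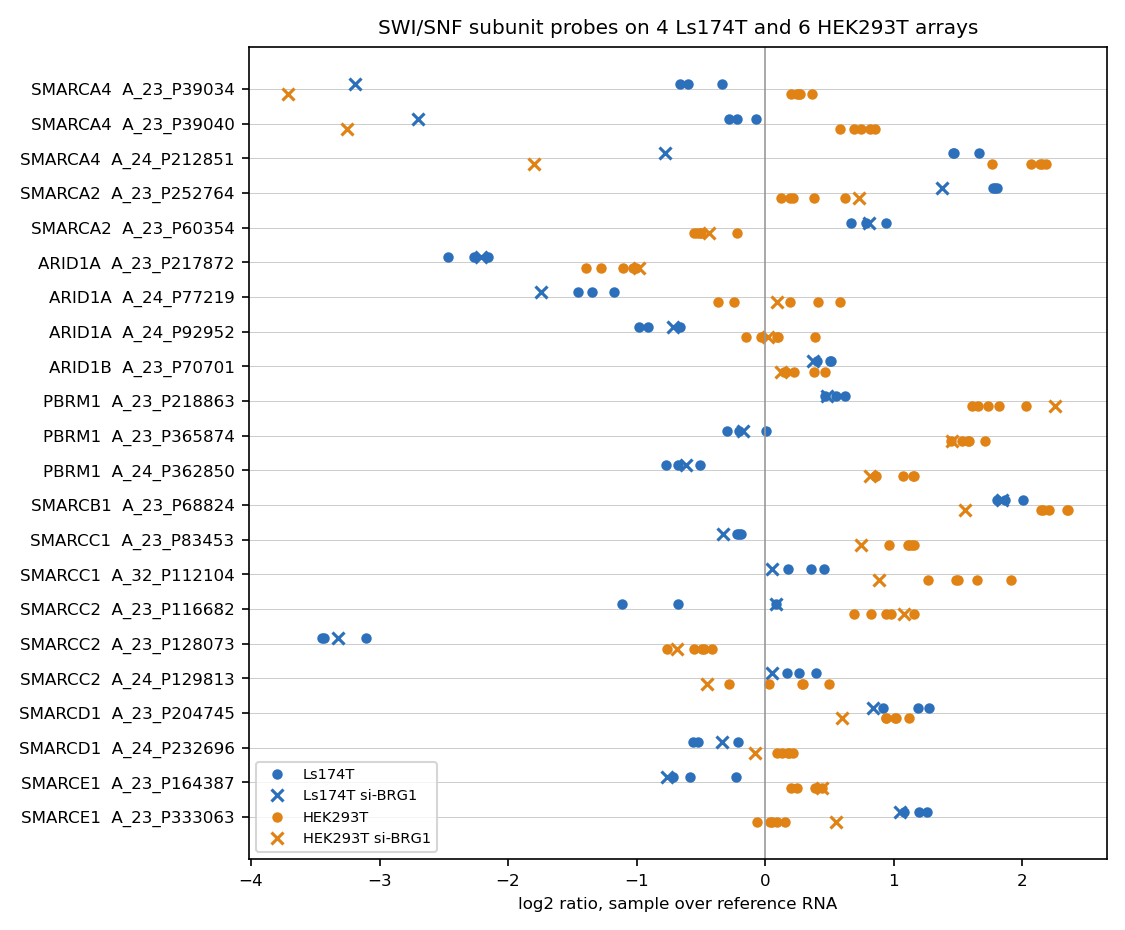
Log2 ratio of sample over reference RNA (x axis) for each of the 22 probes (y axis), blue for the 4 Ls174T and orange for the 6 HEK293T reference arrays, 1 point per array, with crosses for si-BRG1. Positions can be compared along a line of the plot and not between lines. SMARCA2 lies to the right in Ls174T (probe A_23_P60354, 0.67 to 0.94 against -0.56 to -0.22), whereas PBRM1 and SMARCC1 lie to the right in HEK293T.

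Counted over the 20 member probes well-measured on all 10 reference arrays, 13 had ranges that did not overlap between the lines, 10 higher in HEK293T and 3 higher in Ls174T. Of all 24059 probes, 57.3% had ranges that did not overlap. Without the si-BRG1 arrays of both lines, a choice made after seeing the data, 17 of 20 member probes did not overlap, 14 of them higher in HEK293T and 3 (SMARCA2 and 1 probe of SMARCE1) higher in Ls174T, beside 65.2% of all probes. Over all 10 reference arrays, si-BRG1 included, 30.5% of all probes were higher in HEK293T and 26.8% in Ls174T. The 65.2% was not split by direction. The arrays of a line are different conditions and no replicates.

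After BRG1 depletion in Ls174T cells, 3 of 21 well-measured member probes were past 2-fold, all 3 of them SMARCA4 and all lower, beside 5.21% of all probes past 2-fold in either direction and 1.46% lower. The other 18 probes lay between -0.39 and 0.76 with a median of 0.02, and the median of all probes was -0.01. The value of 0.76 was that of the dim SMARCC2 probe A_23_P116682, which also read 0.76 after p300 depletion. With normexp and loess the probes past 2-fold were 2 of SMARCA4, lower, and ARID1A A_23_P217872, higher at 1.04, beside 14.6% of all probes. When background outliers were set to the median before that correction, 0 member probes were higher. The 3 SMARCA4 probes were then lower, beside 0.57% of all probes.

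After BRG1 depletion in HEK293T cells, 6 of 21 member probes were past 1.5-fold, beside 22% of all probes in either direction and 11.7% lower. These were the 3 SMARCA4 probes and SMARCB1, which were lower, and SMARCA2 A_23_P252764 and SMARCE1 A_23_P333063, which were higher. The 18 probes of the other 9 genes had a median of -0.13 and lay between -0.80 and 0.61, and 11 of the 18 were below 0, as were 48.4% of all probes. Against the p300-depleted array of the same slide 7 of 21 were past 1.5-fold, beside 20.2% of all probes, and they were partly different probes. SMARCA4, SMARCB1, SMARCC1 A_32_P112104, and SMARCC2 A_24_P129813 were lower there and PBRM1 A_23_P218863 was higher. SMARCA2 (0.51) and SMARCE1 (0.46) were short of the threshold there. In the sample channel alone against that array, PBRM1 turned to -0.73. The SMARCB1, SMARCC1, and SMARCC2 probes kept their direction at -0.40, -0.69, and -0.75. Relative to the move of the median of all probes in the sample channel alone against si-control, SMARCB1 kept its direction at -0.15, and SMARCA2 and SMARCE1 turned to -0.22 and -0.67. SMARCE1 probe A_23_P333063 read 0.16 in CM, -0.06 in Wnt3A si-control, 0.05 in si-MLLT10, 0.04 in si-DOT1L, 0.09 in si-P300, and 0.56 in si-BRG1. Its spot on the si-BRG1 array was dim in both channels, with a sample signal of 841 against 1248 to 1297 and a reference signal of 572 against 1138 to 1300, and in the sample channel alone it changed by -0.45. Over the 18 probes outside SMARCA4, the median-scaled reference signal on this array was above all 5 other HEK293T arrays for 9 and below all of them for 4, beside 44.1% and 10% of all features.

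**Figure D3:**
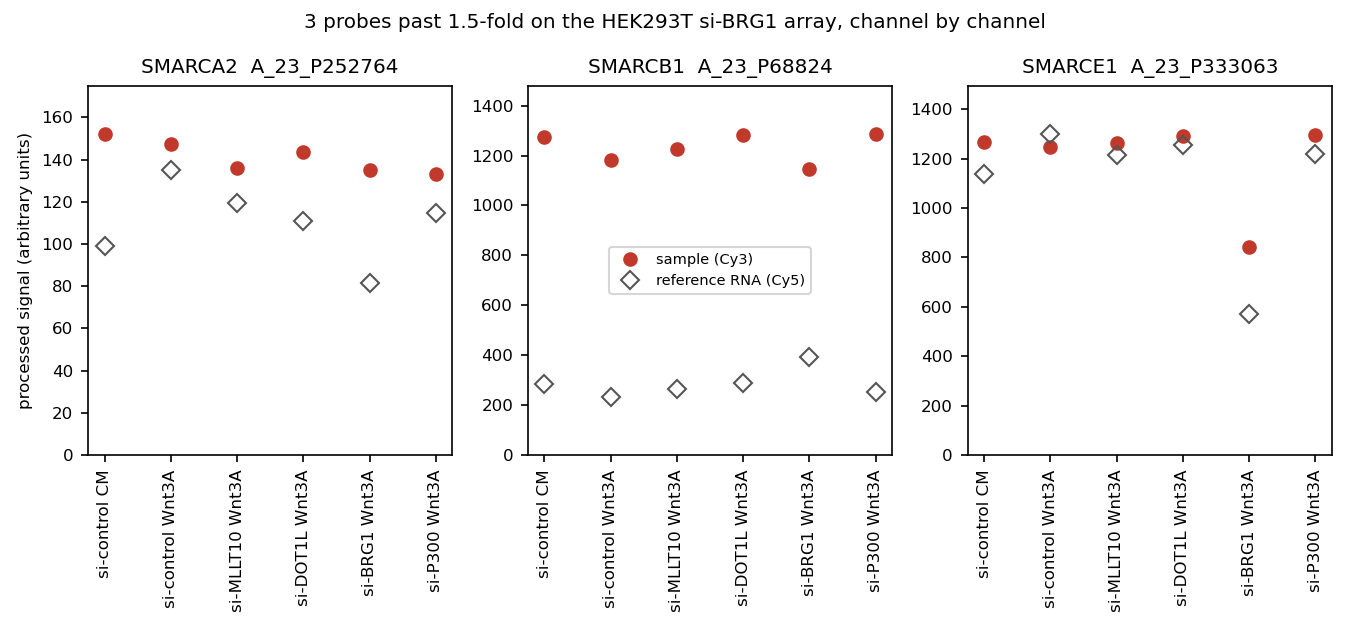
Processed signal (arbitrary units, axes from 0) of the 3 member probes outside SMARCA4 that were past 1.5-fold on the HEK293T si-BRG1 array, on the 6 HEK293T arrays. Circles are the sample and diamonds the reference RNA, 1 spot each with no error bar. On the si-BRG1 array the SMARCB1 reference reads 391 against 232 to 289 elsewhere, and the SMARCE1 spot is dim in both channels, at 841 and 572.

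The members lay close to 0 in the other comparisons of HEK293T cells. Wnt3A against control medium asks whether a 9 h Wnt signal changes the subunits themselves, and 0 of 21 member probes were past 1.5-fold, beside 6.54% of all probes. They lay between -0.49 and 0.38 with a median of -0.09 against -0.01 for all probes, and 15 of 21 were below 0, beside 52.1% of all probes. SMARCA4 changed by -0.02 ± 0.29, 0.17 ± 0.30, and 0.38 ± 0.39. After normexp correction and loess 6 member probes were past 1.5-fold in this comparison, beside 27.8% of all probes, and in the sample channel alone 4 were, beside 20.9%.

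Depletion of MLLT10/AF10 in HEK293T cells moved 1 of 21 member probes past 1.5-fold, beside 7.32% of all probes. It was SMARCC1 A_32_P112104, which was higher by 0.64 ± 0.36 than the Wnt3A si-control and by 0.43, short of 1.5-fold, than the CM array of the same slide. The other SMARCC1 probe changed by 0.04 ± 0.32. Against the CM array, which differs in Wnt3A as well, the 1 member probe past 1.5-fold was SMARCC2 A_24_P129813 at 0.78 ± 0.29, beside 7.74% of all probes. Across HEK293T arrays SMARCC1 A_32_P112104 read 1.48 in CM, 1.27 in Wnt3A si-control, 1.91 in si-MLLT10, 1.65 in si-DOT1L, 0.89 in si-BRG1, and 1.5 in si-P300. The Wnt3A si-control value was thus below every array but si-BRG1. Without the reference channel SMARCC1 A_32_P112104 was higher than the Wnt3A si-control by 1.13, and by 0.98 relative to the move of the median of all probes. Depletion of DOT1L gave 0 of 21 member probes past 1.5-fold beside 5.62% of all probes, with a range of -0.30 to 0.38 and a median of 0.08. Depletion of p300 gave 0 of 21 beside 12.1%, with a range of -0.53 to 0.47 and a median of -0.04. These 4 knockdown comparisons share the Wnt3A si-control array.

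In Ls174T cells, 0 of 20 member probes were past 2-fold after MLLT10/AF10 depletion, beside 1.75% of all probes, and none exceeded its own program error. The probes lay between -0.20 and 0.35. After p300 depletion 0 of 21 were past 2-fold beside 5.76%, with a range of -0.23 to 0.76. Of these 21 probes 16 were above 0, beside 52.2% of all probes, and the median was 0.17 against 0.02 for all probes. The BRG1, MLLT10/AF10, and p300 comparisons share the Ls174T si-control array.

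**Figure D4:**
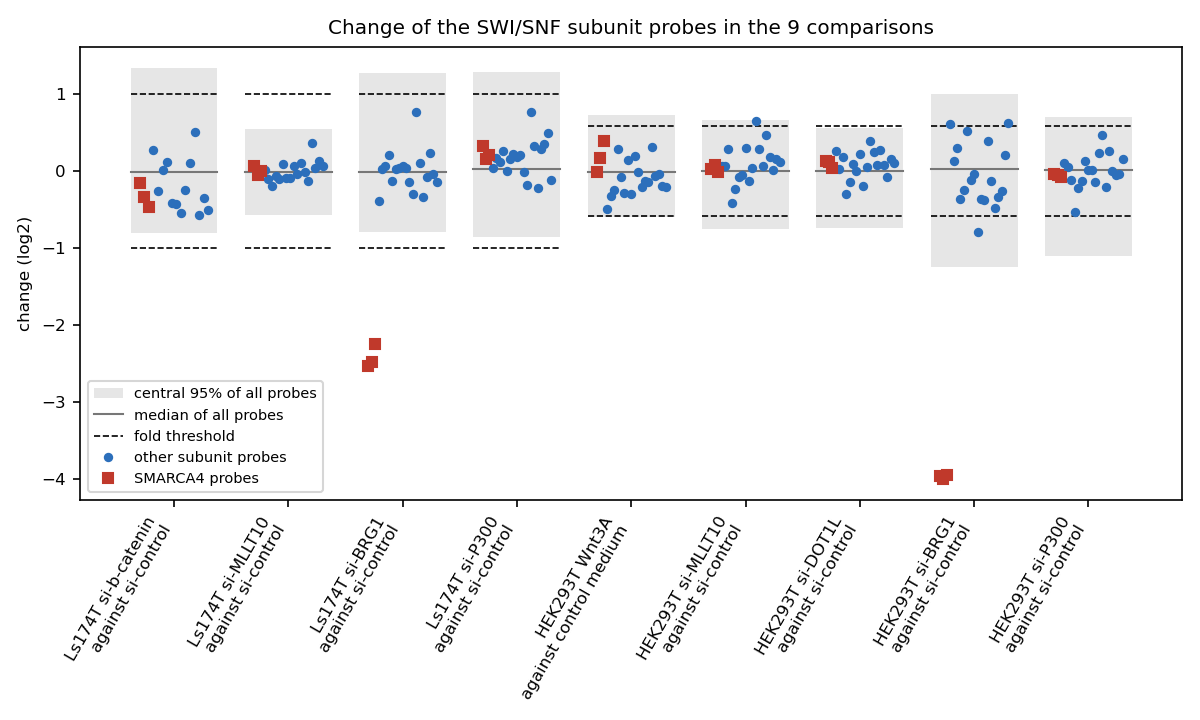
Change (log2) of each well-measured member probe in the 9 comparisons, red squares for SMARCA4 and blue circles for the other subunits, 1 point per probe. Grey boxes span the central 95% of all probes, grey lines are their medians, and dashed lines mark 2-fold in Ls174T and 1.5-fold in HEK293T. SMARCA4 leaves the box after BRG1 depletion in both lines, at -2.53 to -2.24 and -4.00 to -3.95.

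β-catenin depletion, measured directly against si-control on a dye-exchanged pair, left 0 of 16 member probes past 2-fold, beside 5.66% of all probes. The probes lay between -0.57 and 0.51 with a median of -0.30, against -0.02 for all probes, and 11 of 16 were below 0 on both arrays, beside 41.5% of all probes. Medians of the other lists were also below that of all probes, at -0.14 for the other SWI/SNF subunits, -0.25 for the other remodelers, and -0.18 for Polycomb. On the 16 probes the median was -0.28 on each array, but over the 19 probes well-measured on the array with the depleted RNA in Cy5 it was -0.08, beside -0.04 for all probes. The pair had the weakest signals, with a median sample signal of 1.66 and 1.73 times the background against 2.27 to 3.47 on the reference arrays, and 6 member probes were not well-measured, among them a SMARCA2 probe that read 0.31 on the first array and -1.14 on the second.

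The SMARCA4 probes read -0.05, -0.34, and -0.58 with the depleted RNA in Cy5 and -0.28, -0.34, and -0.36 in Cy3. All 3 were below 0 on both arrays. SMARCC1 read -0.44 and -0.74 in Cy5 and -0.41 and -0.37 in Cy3, and SMARCE1 read -0.50 and -0.60 and then -0.21 and -0.42. SMARCB1 read -0.55 and -0.29. SMARCD1 A_24_P232696 had the lowest mean, at -0.57 ± 0.15, and the other SMARCD1 probe the highest, at 0.51 ± 0.21. SMARCA2 A_23_P252764 was above 0 on both arrays, with a mean of 0.27 ± 0.15. The median absolute difference between the arrays of the pair was 0.16 over all probes.

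**Figure D5:**
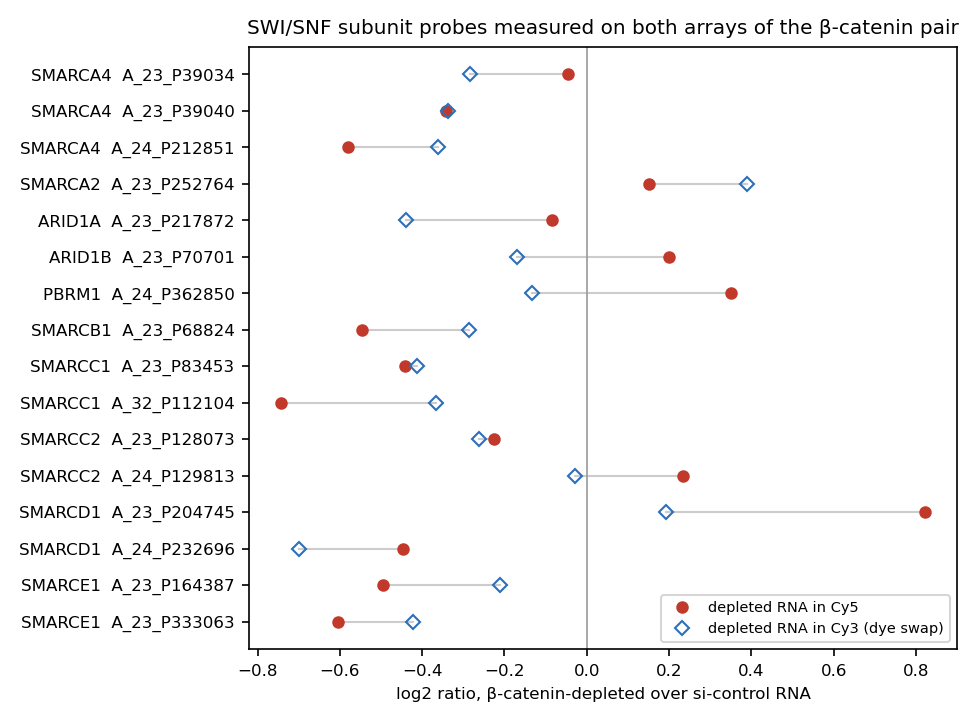
Log2 ratio of β-catenin-depleted over si-control Ls174T RNA (x axis) for the 16 member probes measured on both arrays of the pair (y axis), circles with the depleted RNA in Cy5 and diamonds with it in Cy3. The line joins the same probe, and the distance between its ends is the difference between arrays of the same RNA. For 11 probes both symbols are below 0, and for SMARCA2 and 1 probe of SMARCD1 both are above 0.

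The other SWI/SNF subunits were taken as a separate list. Of 18 such genes on the array, 17 were measured by 24 probes after BRG1 depletion in HEK293T, and 6 of these probes (25%) were past 1.5-fold, all lower, beside the 22% of all probes. They were BCL11B at -1.32 ± 0.64, SS18 at -0.92 ± 0.29, BCL11A at -0.79 ± 0.31, the 2 probes of BCL7B at -0.66 ± 0.30 and -0.64 ± 0.33, and BCL7A at -0.64 ± 0.33. BCL11A and BCL11B are zinc finger proteins and SS18 is the subunit fused to SSX in synovial sarcoma. In the sample channel alone BCL11B, SS18, and the first BCL7B probe were at -1.15, -0.70, and -0.64, BCL11A was at -0.23, and the second BCL7B probe and BCL7A were at 0.11 and 0.14, or -0.11 and -0.08 relative to the move of the median of all probes. After p300 depletion 3 of 24 (12.5%) were past 1.5-fold, beside 12.1% of all probes. They were BCL11B at -0.84 ± 0.61 and BCL7A at -0.73 ± 0.33 and 0.71 ± 0.34 on different probes, or -0.70, -0.43, and 0.08 without the reference channel. After Wnt3A, 2 of 25 probes (8%) were past 1.5-fold, beside 6.54% of all probes. These were ACTL6B (-0.60 ± 0.38) and a BCL11A probe (-0.59 ± 0.39), and in the sample channel alone they were at 0.73 and -0.16. After MLLT10/AF10 and DOT1L depletion 1 probe each was past 1.5-fold, of 23 and 24, beside 7.32% and 5.62% of all probes. They were BCL11A at -0.63 ± 0.31 and BCL7A at -0.63 ± 0.34. This BCL7A probe is the same one that read -0.64 after BRG1 and -0.73 after p300 depletion. The 3 values share the Wnt3A si-control array and are not independent. In Ls174T cells 0 probes of this list passed 2-fold in any of the 4 comparisons, with 18 to 21 probes tested, beside 1.75% to 5.76% of all probes.

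Of the other chromatin remodelers (ISWI, CHD, INO80, and SRCAP families), 3 of 32 probes were past 1.5-fold after BRG1 depletion in HEK293T, beside 22% of all probes. They were CHD1 at 0.64 ± 0.31 and RSF1 at 0.73 ± 0.33 and 0.86 ± 0.29. In the sample channel alone these were at 0.94, 1.25, and -0.62. CHD3 at 0.64 ± 0.33 was past 1.5-fold after p300 depletion, and ATRX at -0.60 ± 0.32 after Wnt3A, 1 of 32 probes each, beside 12.1% and 6.54% of all probes. In Ls174T cells SMARCA1, an ISWI ATPase, was not well above background in si-control, with a processed signal of 6.62, and was at 106 in si-BRG1 and 87.9 in si-P300, which share a slide. It was the 1 probe of 32 past 2-fold in each of these comparisons, beside 5.21% and 5.76% of all probes. It was at least 4.02-fold higher in si-BRG1 and at least 3.30-fold higher in si-P300. These bounds set the si-control level at the lowest signal of any probe well above background on that array, after loess and Aquantile scaling. Dye bias in them was not tested. The median sample signal was 3.47 (si-BRG1) and 3.24 (si-P300) times the background, against 2.27 in si-control. With a signal above 2-fold the background required in both channels, 0.83% and 1.35% of all probes were past 2-fold. The part of the slide and of dim signals in the SMARCA1 change was not tested. Of 19 Polycomb probes, 3 were past 1.5-fold after BRG1 depletion in HEK293T and 1 after p300 depletion, beside 22% and 12.1% of all probes. They were BMI1 at 0.69 ± 0.35 and 0.98 ± 0.43 and CBX8 at -0.64 ± 0.30 after BRG1 depletion, and BMI1 at -0.69 ± 0.31 after p300 depletion. In the sample channel alone these changes were 1.16, 1.77, and -0.09, and -0.08. No Polycomb probe was past the threshold in the other 7 comparisons, beside 1.75% to 7.32% of all probes.

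The pattern of SMARCA4 over the 10 reference arrays, after the mean of each line was subtracted, was set by its low values on the si-BRG1 arrays. The genes most like the mean of its probes, of 16163 probes compared, were LIMK1, a kinase that acts on cofilin (Pearson's r 0.994), the ribosomal protein gene RPL10 (0.994) and its retrogene copy RPL10L (0.989), NELFCD, a subunit of the negative elongation factor (0.984), and AP3M1, a subunit of the AP-3 adaptor (0.981). After BRG1 depletion they changed by -1.07, -1.81, -2.05, -0.49, and -0.22 in Ls174T and by -2.00, -3.33, -4.13, -0.83, and -0.32 in HEK293T. RPL10 and RPL10L are near-identical in sequence, so their probes may read the same RNA. The points share the 10 arrays and the reference RNA. Of the other members SMARCC1 A_23_P83453 was the most alike, at 0.885, and ranked 319.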

How the data were processed

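Total RNA of Ls174T and HEK293T cells was labeled in Cy3 or Cy5 and hybridized to 12 Agilent 4x44K whole human genome arrays. The authors read the scans with the Feature Extraction program (version 10.5.1.1 per the file headers, 8.5.1.1 per the labels). The deposited intensities are the median, local background, and processed signals per channel, the last of them background-subtracted and dye-normalized by the program. The deposited log10 ratios are Cy5 over Cy3 with the program's error, and the other deposited columns are quality flags. The authors' value table holds the same log10 ratios, with the sign of 1 array of the pair turned (largest difference 4.69e-06).

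The ratios were put on the log2 scale, with the sample (or the depleted cells, on the pair) in the numerator according to the dyes the labels give. The dye-exchanged arrays hold the same RNA and were averaged as 1 replicate. Control spots and outlier features were left out, and features needed a signal above 2-fold the background on every array compared. Spots of a probe were averaged, each member probe having 1 spot. Changes are differences between arrays, described against 2-fold (Ls174T) and 1.5-fold (HEK293T), with no test, since each condition has 1 array. Their number limits the precision. Symbols came from RefSeq accessions (27612 of 29084 features, 94.9%). The members and lists were chosen with earlier results of these data known. Named were all members, list genes past the fold, the siRNA targets in their own depletion, and the 5 genes most like SMARCA4. Normexp with an offset of 50 and loess were run in limma 3.58.1 (R 4.3.3), and the other steps in pandas 2.3.3. The steps were tested on simulated data. No feature was saturated (0 on every array), and no genomic coordinates of the files were used.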

Additional observations from a re-analysis of the deposited data

Results flagged for a closer look

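Of 62 pairs of the same member probe and the same knockdown (MLLT10/AF10, BRG1, or p300) in both lines, 31 went in opposite directions, and for 1 of them both changes exceeded their program errors. The share of opposite directions over all probes was not counted, so the 31 pairs are not read as a line difference. In these comparisons 45.8% to 52.2% of all probes were above 0. SMARCA2 A_23_P252764 changed by -0.39 in Ls174T and by 0.60 in HEK293T after BRG1 depletion, a difference of 1.00 on the log2 scale between single arrays of each condition. The difference was not tested. In the sample channel alone the HEK293T value was -0.0044, and the Ls174T value was -0.65. Relative to the move of the median of all probes on that scale they were -0.22 and -0.35, in the same direction.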

How the results depend on the processing

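With 1 array per condition, the number of arrays limits every value, and the weak signals of the β-catenin pair limit it further. Across 1589 recomputed values of single member probes, 1424 stayed within the program error of the value reported and 160 moved beyond it, 79 of them with a change of sign. The other 5 were past the fold as reported and turned direction. The pooled count does not measure robustness, since some settings cannot change the value of a probe with 1 spot. These were the deposited value table, no signal filter, and outliers kept (183 values each), and the filter on both channels (166). In the sample channel alone 84 of 167 stayed, 80 moved, and 3 turned direction. With normexp and loess 36 of 183 moved. The mean change of SMARCA4 after BRG1 depletion was -2.42 in Ls174T and -3.97 in HEK293T. With normexp and loess it was -1.71 and -2.89, and in the sample channel alone it was -2.80 in Ls174T, both against si-control (-2.498 relative to the move of the median of all probes) and against the p300-depleted array of the same slide. The 5 changes that turned direction all came from the sample channel alone in HEK293T after BRG1 depletion. They were -0.0044 for SMARCA2, 0.0741 for SMARCB1, and -0.45 for SMARCE1 against si-control, and -0.22 for SMARCA2 and -0.86 for SMARCE1 against the p300-depleted array. Relative to the move of the median of all probes, SMARCB1 was at -0.15 and kept its direction. The cause was not tested.

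Counts of member probes past the fold also depended on the processing. With normexp and loess the count after Wnt3A was 6, beside 27.8% of all probes, and it was 0 when background outliers were set to the median. In the sample channel alone it was 4 after Wnt3A, 3 after MLLT10/AF10, 2 after DOT1L, and 3 after p300 depletion in HEK293T, of 21 each and beside 20.9%, 18.3%, 15.9%, and 32.2% of all probes. Without a filter on signal it was 1 after DOT1L and 1 after p300 depletion, beside 15.8% and 22.1%. With the other fold threshold it was 1 after p300 depletion in Ls174T, and 0 after MLLT10/AF10 and 3 after BRG1 depletion in HEK293T, beside 14.9%, 2.36%, and 6.66%. The split after BRG1 depletion in HEK293T, 2 higher and 4 lower, became 1 and 6 with normexp and loess and against the array of the same slide, and 0 and 4 with median-centred ratios. Over all probes, 2707 higher and 3045 lower became 4126 and 1743, 2691 and 2471, and 2433 and 3321 in these settings. With normexp and background outliers set to the median, the member split was 0 and 4, beside 1438 and 2161 of all probes. Leaving out either array of the β-catenin pair gave 0 member probes past 2-fold, while the member median of -0.30 became -0.08 (19 probes) without the second array and -0.28 without the first. The sample channel alone moved the median of all probes by -0.31 (BRG1) and -0.29 (p300) in Ls174T, by -0.12 after Wnt3A, and by 0.14 to 0.27 in the HEK293T knockdowns. Median-centred ratios moved it by -0.14 (BRG1, Ls174T) and normexp with loess by -0.14 (Wnt3A). The line counts stayed between 10 and 17 of the member probes, and the counts over all probes moved as well. With normexp and loess 7 member probes were higher in HEK293T and 3 in Ls174T, beside 4974 and 4551 of all probes. As reported, these all-probe counts were 7337 and 6447. The count of 17 came without the si-BRG1 arrays, beside 65.2% of all probes, against 57.3% as reported. Normexp with background outliers at the median, leaving out the si-BRG1 arrays, and the sample channel against the array of the same slide were chosen after seeing the data. No paired analysis was possible because each condition has 1 array.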
